A study of Mus musculus with 2 samples.

Results

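The enzymes described here are 8 proteins that move one-carbon units on folate: *Shmt2*, *Mthfd2*, *Mthfd1l* and *Aldh1l2*, whose products work in mitochondria, and *Shmt1*, *Mthfd1*, *Mtr* and *Mthfs*, whose products work mainly in the cytosol. They were chosen by name as members of the pathway, and all 8 were found among the 54532 gene identifiers of the count table. RNA was sequenced from M1-like bone marrow derived macrophages (BMDMs) of male FRβ KO mice and of male WT mice, both labelled C57BL/6. FRβ is folate receptor β, the product of *Folr2*. In the FRβ KO mice this gene is disrupted by an inserted neomycin resistance gene, and the allele came from mice of the SWV background that were then crossed to C57BL/6. The WT mice were purchased at 6 to 8 weeks of age, while the FRβ KO mice were bred locally with no age at harvest stated, so source of the animals and genotype cannot be told apart. By the labels, cells of both genotypes grew for 7 days in regular RPMI 1640 with 10% serum and 20 ng/mL M-CSF, the growth factor that drives macrophage formation. The study's methods name either regular or folate-deficient medium for this step, and the FA_N in both sample titles is not explained, so the folate content of the medium is not settled. M1-like polarization followed, for 24 hours with LPS at 1 ng/mL and IFNγ at 20 ng/mL. Because 3 mice were pooled into 1 FRβ KO library and 3 into 1 WT library, the variation between mice is unknown and no p-value is given.

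Folate carries single carbon atoms for the synthesis of purines, thymidylate and methionine. In most mammalian cells serine is the main donor. Mitochondrial enzymes strip the carbon from serine and export it as formate, and cytosolic enzymes attach the formate to tetrahydrofolate (THF) again or take the carbon from serine directly. In activated macrophages this pathway has been linked to inflammatory gene expression through the methyl donor S-adenosylmethionine.

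The count table held 19742619 counts in the FRβ KO library and 18871271 in the WT library. *Folr2* had 2 counts in FRβ KO and 0 in WT, which is at or under the 3 counts that a count of 0 allows, so the disrupted gene does not check the labels here. All 8 macrophage markers were measured, with *Lyz2*, encoding lysozyme, at 275618 counts in FRβ KO and 304923 in WT. Of these markers 3 had a KO/WT ratio above 1 and 4 below 1 beyond counting error, and of 8 M1-like markers 3 and 5, where 14.7% of all tested genes were above 1 and 16.8% below 1. These shares are not matched for depth, since the median tested gene had 594 counts over both libraries and most of these markers far more. The M1-like markers thus went both ways, with *Gbp2*, a gene induced by IFNγ, at 147806 counts in FRβ KO and 161942 in WT, and *Il12b*, a subunit of interleukin 12, at 533 counts in FRβ KO and 253 in WT. The 6 T cell markers summed to 22 counts in FRβ KO and 28 in WT, nearly all of them from *Cd4*, with 4 of the 6 at 0 in both libraries. The 4 B cell markers summed to 10 counts in FRβ KO and 17 in WT, with 3 at 0, and the 6 neutrophil markers to 25 counts in each. The 5 fibroblast markers summed to 60 counts in FRβ KO and 68 in WT. The 4 dendritic cell markers summed to 211 counts in FRβ KO and 220 in WT, with *Siglech* at 0 in both and a median log2 ratio of 0.20 over the 3 tested genes. Of these, *Xcr1*, a receptor of cross-presenting dendritic cells, had 94 counts in FRβ KO and 76 in WT (KO/WT ratio of scaled counts 1.15, 95% counting interval 0.843 to 1.58), and *Zbtb46*, a transcription factor of classical dendritic cells, had 109 counts in FRβ KO and 138 in WT (0.736, 0.567 to 0.954). Whether this cell type had a part in the results below was not tested. In bulk RNA, fewer cells of a type and less RNA per cell cannot be told apart.

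The gene pairs that split the work between compartments hold no identical stretch as long as a read. This matters because the comparison of the arms rests on separate counts for *Shmt2* and *Shmt1*, which make glycine and 5,10-methylene-THF from serine. Their coding sequences were identical at 67.8% of aligned bases, and the longest run of identical bases was 19. Below is the most similar stretch of 60 bases, in GENCODE M21 transcripts, with differing bases in capitals. It covers bases 467 to 526 of the *Shmt2* coding sequence and 380 to 439 of *Shmt1*.
Shmt2: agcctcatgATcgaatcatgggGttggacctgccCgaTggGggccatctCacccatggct
Shmt1: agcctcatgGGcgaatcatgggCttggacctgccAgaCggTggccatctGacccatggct
Here 7 of the 60 bases differ, in the part of the genes where they are most alike.

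*Mthfd1l* and *Mthfd1* share the 10-formyl-THF synthetase activity that joins formate and THF, and their coding sequences were identical at 70.4% of aligned bases. The longest identical run was 20 bases. The most similar stretch, bases 1417 to 1476 of *Mthfd1l* and 1291 to 1350 of *Mthfd1*, holds 8 differing bases, again in capitals.
Mthfd1l: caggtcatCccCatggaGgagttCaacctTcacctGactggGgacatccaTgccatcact
Mthfd1: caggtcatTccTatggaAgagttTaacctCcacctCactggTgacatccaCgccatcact
Likewise, *Aldh1l2* and its cytosolic relative *Aldh1l1* were identical at 73.1% of bases, and *Mthfd2* and its mitochondrial relative *Mthfd2l* at 73.0%. The longest identical runs, 22 and 20 bases, are again far shorter than the reads of 150 bases.

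*Mthfs* is the exception. It encodes the enzyme that returns 5-formyl-THF, a storage form, to the active pool, and the mouse genome holds a second coding copy, *Mthfsl*, on the same chromosome 9 (88688602 to 88720296 in mm10, against 89210676 to 89377713 for *Mthfs*). Their coding sequences are both 612 bases long and differ at 3 bases, with an identical run of 320 bases, which is longer than a read. The stretch of 60 bases with the most differences, bases 233 to 292 of each, is shown to make clear how little separates the pair.
Mthfs: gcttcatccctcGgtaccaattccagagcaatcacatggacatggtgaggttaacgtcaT
Mthfsl: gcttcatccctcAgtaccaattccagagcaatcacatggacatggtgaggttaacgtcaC
The table nevertheless gives separate counts to both genes, and the sources used here do not say how reads that match both were divided. Counts of *Mthfs* are therefore uncertain, and its sum with *Mthfsl* is given beside them below.

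Within the macrophages the 8 enzymes were expressed at very different levels. Levels between genes were compared as CPM (counts scaled to 1000000 per library) per kilobase of all annotated exons. *Mthfd2*, the mitochondrial dehydrogenase and cyclohydrolase that oxidizes 5,10-methylene-THF, had the highest level of the 8, with 8.82 CPM per kilobase in FRβ KO and 8.48 in WT. *Mthfd1l*, which releases formate from mitochondria, followed with 6.29 CPM per kilobase in FRβ KO and 5.82 in WT. *Aldh1l2*, which instead burns the formyl group to CO2 and yields NADPH, was the lowest, with 0.233 CPM per kilobase in FRβ KO and 0.107 in WT. The formate-producing steps of the mitochondrial arm were thus far above its formyl-oxidizing step in both libraries.

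Among the cytosolic enzymes the levels were closer together. *Mtr*, encoding methionine synthase, which passes the methyl group of 5-methyl-THF to homocysteine, had 3.41 CPM per kilobase in FRβ KO and 2.93 in WT. The trifunctional enzyme gene *Mthfd1* had 2.43 CPM per kilobase in FRβ KO and 3.03 in WT. *Shmt2* lay at 1.80 CPM per kilobase in FRβ KO and 1.93 in WT, below both. *Mthfs* (1.28 in FRβ KO and 1.24 in WT) and *Shmt1* (1.15 in FRβ KO and 1.06 in WT) were next, on the same scale. Measured against all tested genes, *Mthfd2* stood above 68.8% of them in FRβ KO and 67.8% in WT, and *Shmt1* above 29.9% in FRβ KO and 28.7% in WT.

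**Figure D1:**
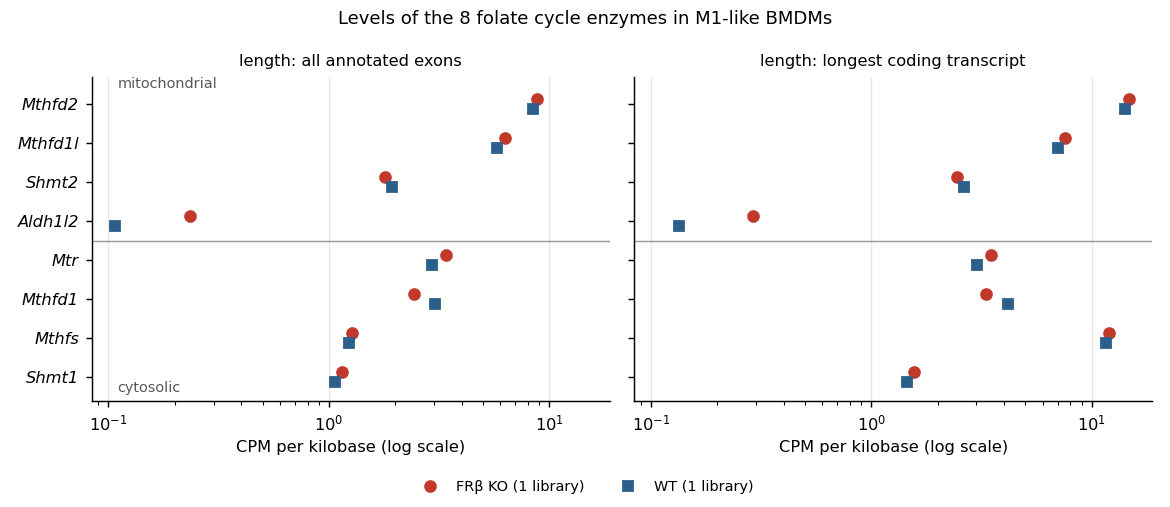
Levels of the 8 enzymes in CPM per kilobase (log axis), as circles for the FRβ KO library and squares for the WT library, with mitochondrial enzymes above the line and cytosolic ones below it. The left panel divides by the length of all annotated exons and the right panel by the longest coding transcript, which moves *Mthfs* to second place behind *Mthfd2* and leaves *Aldh1l2* lowest in both libraries.

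Neighbours in the order of levels were compared within each library, with the exact interval of the ratio of their counts per kilobase. In FRβ KO every step down the order had an interval above 1 except that between *Mthfs* and *Shmt1* (ratio 1.11, 0.863 to 1.45). In WT the same pair was not separated (ratio 1.16, 0.884 to 1.54), nor were *Mthfd1* and *Mtr* (ratio 1.03, 0.883 to 1.21). On this scale *Mtr* stood above *Mthfd1* in FRβ KO, while in WT they could not be ordered at this depth. The order depended on the length used. Per kilobase of the longest coding transcript, *Mtr* over *Mthfd1* was 1.05 in FRβ KO (0.898 to 1.23), not separated, and in WT *Mthfd1* stood above *Mtr* by 1.38 (1.18 to 1.61). By that length *Mtr* and *Shmt2* were not separated in WT either (1.15, 0.932 to 1.42). *Mthfs* has 7638 bases of annotated exons but a longest coding transcript of 816 bases, and per kilobase of that transcript its level was 12.0 CPM per kilobase in FRβ KO and 11.6 in WT.

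Comparing the arms, the mitochondrial enzymes summed to 1320 counts in FRβ KO and 1159 in WT. The cytosolic enzymes summed to 1081 counts in FRβ KO and 970 in WT. Per kilobase the mitochondrial arm made up 67.5% of the summed level of the 8 genes in FRβ KO and 66.4% in WT, since *Mthfd2* and *Mthfd1l* alone held 34.7% and 24.8% of it in FRβ KO, against 34.5% and 23.7% in WT. Per kilobase of the longest coding transcript, which raises the level of *Mthfs*, the mitochondrial share was 55.2% in FRβ KO and 54.2% in WT. The ratio of mitochondrial to cytosolic counts was 1.22 in FRβ KO and 1.19 in WT. Because this ratio is taken within each library, it does not depend on how library sizes are scaled.

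Next, the balance of the arms was compared between the genotypes. The question is whether both libraries held the same mixture of folate enzyme transcripts. The ratio of mitochondrial to cytosolic counts in FRβ KO was 1.02 times that in WT, with a conditional exact 95% interval of 0.907 to 1.15 that covers counting error only. The KO/WT ratio of TMM-scaled sums was 1.06 (95% counting interval 0.980 to 1.15) for the mitochondrial arm and 1.04 (0.952 to 1.13) for the cytosolic arm. At this depth neither arm differed between the libraries beyond counting error under TMM scaling. When libraries were scaled by their total counts instead, the interval of the mitochondrial arm lay just above 1 (1.09, 1.01 to 1.18).

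The balance also depended on which genes were counted. Leaving out *Mtr* alone gave 1.15 times (0.989 to 1.33), an interval that holds 1. A further ratio took only the enzymes whose counterpart in the other compartment is also among the 8 (*Shmt2*, *Mthfd2* and *Mthfd1l* over *Shmt1* and *Mthfd1*). This leaves out *Mtr*, *Mthfs* and *Aldh1l2* together, the last because its cytosolic relative *Aldh1l1* is not among the 8. That ratio was 4.21 in FRβ KO and 3.49 in WT, 1.21 times higher in FRβ KO (1.01 to 1.44). *Mthfd1l* over *Mthfd1* gave a count ratio of 2.58 in FRβ KO and 1.92 in WT, which is 1.35 times higher in FRβ KO (1.08 to 1.69). For *Mthfd2* over *Mthfd1* the ratio was 2.85 in FRβ KO and 2.20 in WT, 1.30 times higher (1.04 to 1.62). All of these share the *Mthfd1* count, so they are not separate observations. *Shmt2* over *Shmt1* went the other way, at 1.26 in FRβ KO and 1.45 in WT, with an interval that holds 1 (0.865 times, 0.567 to 1.32).

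Gene by gene, 5 of the 8 enzymes had a KO/WT ratio whose 95% counting interval holds 1, 2 had an interval above 1 (*Mtr* and *Aldh1l2*) and 1 had an interval below 1 (*Mthfd1*). Of the 14489 tested genes (at least 10 counts in sum), 14.7% had an interval wholly above 1 and 16.8% an interval wholly below 1. Counts of 2 and 1 among 8 genes are near these background shares. With 99% intervals 0 of the 8 lay above 1 and 0 below 1. For 7 of the 8 the whole interval lay within 2-fold, against 72.0% of tested genes, and for 6 within 1.5-fold, against 59.8%. The median log2 ratio of the 8 was 0.08, beside -0.01 over all tested genes.

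**Figure D2:**
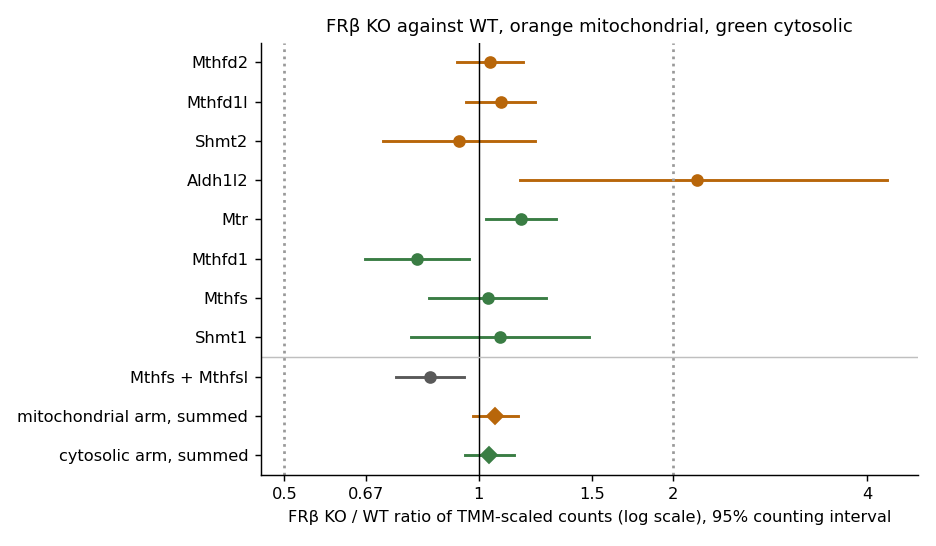
FRβ KO over WT ratio of TMM-scaled counts for each enzyme, for *Mthfs* summed with its copy *Mthfsl* and for the summed arms, on a log axis with 95% counting intervals as bars. *Aldh1l2* stands out to the right at 2.18 with a wide interval, *Mthfd1* lies left of 1 at 0.802, and both arm sums hold 1.

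Of the mitochondrial enzymes, *Mthfd2* (chromosome 6 of mm10, 83305691 to 83325908) had 615 counts in FRβ KO and 551 in WT, a ratio of 1.04 (0.926 to 1.17). *Mthfd1l* (chromosome 10, 3973118 to 4167081) had 558 counts in FRβ KO and 481 in WT, a ratio of 1.08 (0.956 to 1.22). *Shmt2* (chromosome 10, 127517123 to 127522444) had 112 counts in each library, a ratio of 0.932 (0.711 to 1.22). These genes were the best measured of the arm, and none differed between the libraries beyond counting error.

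*Aldh1l2* (chromosome 10, 83487450 to 83534140) was the exception among the mitochondrial enzymes, with 35 counts in FRβ KO and 15 in WT. Its ratio of 2.18 had an interval of 1.16 to 4.29, which reaches below 2-fold. Among the 1836 genes of similar depth (30 to 99 counts), 7.14% had a point ratio above 2 and 9.42% an interval above 1. In addition, 1056 bases of its exons lie over exons of *D10Wsu102e* on the opposite strand, a gene with 552 counts in FRβ KO and 478 in WT (ratio 1.08, 0.951 to 1.22). Whether the counting used strand is not stated, so reads of these 2 genes may not have been told apart in the overlap. The sum of both had a ratio of 1.11 (0.983 to 1.25). Set against its cytosolic relative *Aldh1l1*, which had 115 counts in FRβ KO and 132 in WT, *Aldh1l2* gave a count ratio of 0.304 in FRβ KO and 0.114 in WT.

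Of the cytosolic enzymes, *Mtr* (chromosome 13, 12182712 to 12258113) had 581 counts in FRβ KO and 466 in WT, a ratio of 1.16 (1.03 to 1.32). *Mthfd1* (chromosome 12, 76255298 to 76319803) had 216 counts in FRβ KO and 251 in WT, a ratio of 0.802 (0.666 to 0.966). These genes moved apart, and *Mtr* over *Mthfd1* was 2.69 in FRβ KO and 1.86 in WT, 1.45 times higher in FRβ KO (1.16 to 1.81), a pair chosen after its values were seen. *Shmt1* (chromosome 11, 60788104 to 60811718) had 89 counts in FRβ KO and 77 in WT, a ratio of 1.08 (0.785 to 1.48), the widest interval of this arm. It shares 184 bases of exon with *Smcr8* on the opposite strand, a far more abundant gene with 4389 counts in FRβ KO and 3985 in WT.

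*Mthfs* alone had 195 counts in FRβ KO and 176 in WT, a ratio of 1.03 (0.838 to 1.27). Its copy *Mthfsl* had more counts in both libraries, 323 in FRβ KO and 399 in WT, with a ratio of 0.755 (0.650 to 0.876). Summed over both genes there were 518 counts in FRβ KO and 575 in WT, a ratio of 0.840 (0.744 to 0.947), so the sum was lower in FRβ KO where *Mthfs* alone was not. *Mthfsl* was drawn in by the search for copies, after its values were seen. With its counts added, the cytosolic arm had a ratio of 0.956 (0.887 to 1.03), and the mitochondrial to cytosolic ratio in FRβ KO was 1.11 times that in WT (0.995 to 1.24).

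**Figure D3:**
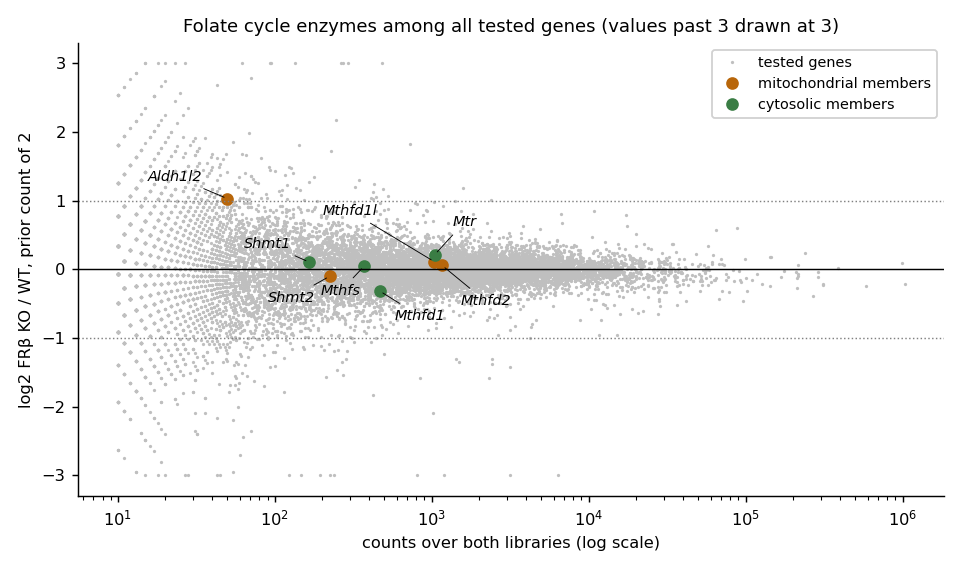
Log2 FRβ KO over WT ratio with a prior count of 2 (vertical axis, values past 3 drawn at 3) against the counts over both libraries (log axis) for 14489 tested genes in grey, with the mitochondrial enzymes in orange and the cytosolic ones in green. The 7 enzymes with at least 100 counts lie inside the band of other genes of their abundance, and *Aldh1l2*, with 50 counts, lies at the edge of a wider one.

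Depth sets how narrow an interval can be, so the 7 enzymes with at least 100 counts were also read against the 10486 genes that have as many. Of these genes, 17.4% had an interval wholly above 1 and 20.0% an interval wholly below 1, beside 1 enzyme each (*Mtr* and *Mthfd1*). The interval lay within 2-fold for 96.0% of them, as for all 7 enzymes, and within 1.5-fold for 82.6%, as for 6. The point ratio was past 1.5-fold in either direction for 4.26%, and for 0 of the 7 enzymes. By these counts the folate enzymes did not stand apart from other genes of their abundance. None of the 8 genes lies on chromosome 7, where *Folr2* is located, and 3 of the 4 mitochondrial enzymes lie on chromosome 10.

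The remaining enzymes of folate metabolism are taken next. Of 18 listed genes 14 were tested, of which 1 had an interval above 1, 2 below 1 and 11 intervals that hold 1. The counts of this and the following lists stand beside 14.7% above 1 and 16.8% below 1 over all tested genes, and 1 and 2 of 14 are near these shares. Their median log2 ratio was 0.02. *Ggh*, which trims the glutamate tail of folates in lysosomes, had the highest level per kilobase of the list (26.8 CPM per kilobase in FRβ KO and 25.6 in WT). *Dld*, a subunit shared by the glycine cleavage system and other complexes, followed (22.5 CPM per kilobase in FRβ KO and 22.2 in WT). *Slc25a32*, the mitochondrial folate carrier, had 436 counts in FRβ KO and 378 in WT (1.08, 0.935 to 1.24).

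At the other end, *Tyms*, encoding thymidylate synthase, had 19 counts in FRβ KO and 13 in WT. Of the glycine cleavage system, *Gldc* had 2 counts in each library, so its first subunit was at the limit of detection, while *Amt*, the THF-dependent subunit, had 65 counts in FRβ KO and 35 in WT (ratio 1.73, 1.13 to 2.69). *Fpgs*, which adds the glutamates that keep folates inside cells, had 86 counts in FRβ KO and 109 in WT (0.736, 0.548 to 0.985), an interval that holds 1 when libraries are scaled by total counts. *Qdpr*, which recycles tetrahydrobiopterin, had 368 counts in FRβ KO and 413 in WT (0.831, 0.720 to 0.958). *Ftcd* and *Dmgdh* had 0 counts in both libraries, which allows up to 0.150 CPM in FRβ KO and 0.161 CPM in WT.

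**Figure D4:**
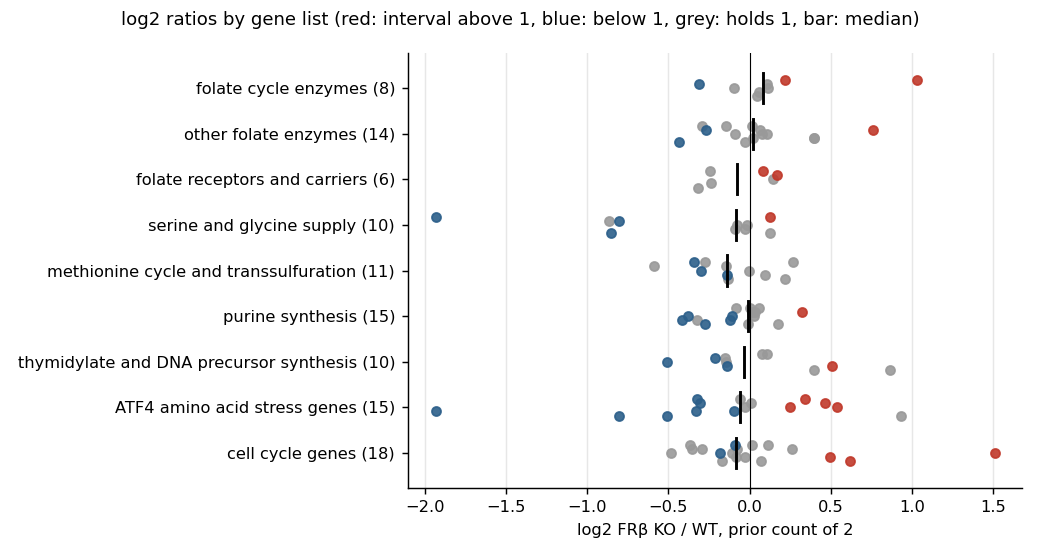
Log2 FRβ KO over WT ratios (prior count of 2) of the 8 enzymes and of tested genes in 8 related lists, with the number of tested genes in parentheses and the median as a bar (red, interval above 1; blue, below 1; grey, holds 1). Medians of the lists lie between -0.14 and 0.08, and the serine and glycine list has a tail to the left.

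Serine, the donor of the carbon, is taken up or made from glucose. Of 10 tested genes for serine and glycine supply, 1 had an interval above 1 and 3 below 1, with a median log2 ratio of -0.08. *Phgdh*, which commits glucose carbon to serine, had 1 count in FRβ KO and 9 in WT (ratio 0.104, 0.00236 to 0.748). *Psat1*, the next enzyme of that route, had 66 counts in FRβ KO and 109 in WT (0.564, 0.409 to 0.773). The last enzyme of the route had 89 counts in FRβ KO and 84 in WT, with an interval that holds 1 (0.988, 0.725 to 1.35). The mitochondrial membrane protein gene *Sfxn2* had 46 counts in FRβ KO and 79 in WT (0.543, 0.369 to 0.791), and its relative *Sfxn3*, the most abundant of the list per kilobase, 2226 in FRβ KO and 1904 in WT (1.09, 1.02 to 1.16). None of these ratios had its whole interval past 2-fold, which 0.311% of tested genes did upwards and 0.407% downwards.

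*Psat1* and *Phgdh* also belong to the ATF4 response to amino acid shortage, as *Mthfd2*, *Shmt2* and *Aldh1l2* do. Of 15 genes listed for that response, 4 had an interval above 1 and 7 below 1, where 14.7% and 16.8% of all tested genes did, and the median log2 ratio was -0.06. Over genes with at least 100 counts the shares were 17.4% and 20.0%. Some of the 15 genes had far more counts than that, so neither comparison matches their depth. *Atf4* itself had 8191 counts in FRβ KO and 9449 in WT (0.808, 0.784 to 0.833). *Nupr1*, a stress-induced target on chromosome 7, had 323 in FRβ KO and 207 in WT (1.45, 1.22 to 1.74). The genes of this response thus did not share 1 direction. Of the folate enzymes that belong to it, *Aldh1l2* had an interval above 1, on 35 counts in FRβ KO and 15 in WT. Its 99% interval holds 1 (0.970 to 5.32), and its reads may be mixed with those of *D10Wsu102e*, as given above. The intervals of *Mthfd2* and *Shmt2* hold 1.

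Purine synthesis draws on the cycle for carbon. Of 15 purine synthesis genes, 1 had an interval above 1 and 5 below 1, with a median log2 ratio of -0.01. *Impdh1*, which limits guanine nucleotide synthesis, had 2010 counts in FRβ KO and 2504 in WT (0.748, 0.705 to 0.794). *Atic*, which uses 10-formyl-THF for the last carbon of the purine ring, had 681 in FRβ KO and 769 in WT (0.826, 0.744 to 0.916). *Ppat*, the first enzyme of the route, had 143 in FRβ KO and 174 in WT (0.766, 0.610 to 0.961). *Pfas*, an intermediate step, was higher with 311 in FRβ KO and 232 in WT (1.25, 1.05 to 1.49).

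Methionine is the other outlet, entered through *Mtr*. Of 11 tested genes of the methionine cycle and its branches, 0 had an interval above 1 and 3 below 1, and the median log2 ratio was -0.14. *Mat2a*, which makes S-adenosylmethionine, had 355 counts in FRβ KO and 408 in WT (0.811, 0.702 to 0.937). *Enoph1*, of the methionine salvage route, had 274 in FRβ KO and 325 in WT (0.786, 0.667 to 0.926). *Mtr* had an interval above 1 and these named genes had intervals below 1, while 8 of the 11 tested genes had intervals that hold 1. By the point ratio 3 of the 11 were above 1 and 8 below. The 99% interval of *Mtr* holds 1 (0.989 to 1.37).

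For thymidylate and DNA precursors, 1 of 10 tested genes had an interval above 1 and 3 below 1, with a median log2 ratio of -0.03. *Rrm1*, the large subunit of ribonucleotide reductase, had 403 counts in FRβ KO and 264 in WT (1.42, 1.22 to 1.67), and *Dut*, which removes dUTP, had 80 in FRβ KO and 107 in WT (0.697, 0.515 to 0.940). *Samhd1*, which degrades deoxynucleotides in resting macrophages, was by far the most abundant of the list, with 61099 counts in FRβ KO and 66047 in WT (0.862, 0.853 to 0.872). Of 18 tested cell cycle genes, 3 had an interval above 1 and 2 below 1 (0 when scaled by total counts), while by the point ratio 7 were above 1 and 11 below, and the median log2 ratio was -0.08. *Mki67*, a marker of cycling cells, had 395 counts in FRβ KO and 239 in WT (1.54, 1.31 to 1.82). *Pcna*, the sliding clamp of DNA replication, was the most abundant gene of the list per kilobase. It had 3010 counts in FRβ KO and 2993 in WT, with an interval below 1 (0.938, 0.891 to 0.987). Whether the share of cycling cells had a part in the values of the folate enzymes was not tested. *Rrm1* and *Mki67*, like *Nupr1* above, lie on chromosome 7, where *Folr2* is located. The cell cycle and ATF4 lists held other tested genes of that chromosome, all with intervals that hold 1, and the thymidylate list held none. Among the macrophage markers, a gene of that chromosome had an interval below 1 (0.948, 0.917 to 0.980). How near each of these genes lies to *Folr2* was not compared. Whether sequence from the SWV background around *Folr2* had a part in these ratios was not tested.

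Of the 9 listed folate receptors and carriers 6 were tested, 2 with an interval above 1, 0 below 1 and 4 that hold 1. By the point ratio 3 were above 1 and 3 below, and the median log2 ratio was -0.08. The exporter genes *Abcc1* (5256 counts in FRβ KO and 4621 in WT, 1.06, 1.02 to 1.10) and *Abcc3* (1001 counts in FRβ KO and 830 in WT, 1.12, 1.02 to 1.23) were the genes above 1. The disrupted receptor gene was at the limit of detection in both libraries, as given above, so the values of the folate enzymes compare cells of 2 genotypes that both held little or no *Folr2* transcript after M1-like polarization.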

How the data were processed

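RNA of M1-like BMDMs was sequenced in 1 FRβ KO and 1 WT library, each a pool of 3 male mice. The authors deposited whole-number read counts for each gene, without normalization. In their methods, the sequencing provider trimmed paired-end reads of 150 bases, used HISAT2 with the mm10 genome, and counted. Which counting program, annotation and strand setting were used is not given in the sources. The submitters' processing notes also name edgeR. The labels give regular medium, while the methods name regular or folate-deficient medium.

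Symbols, exons, coordinates and transcript sequences came from GENCODE M21 (GRCm38, mm10), which lacked 37 of the identifiers. Scaling used TMM (edgeR 4.0.16, R 4.3.3), by which the FRβ KO library was 1.07 times the size of the WT library. Each KO/WT ratio, and each ratio of neighbouring genes within a library, has an exact (Clopper-Pearson) 95% interval from its pair of counts (scipy 1.17.1). Where a ratio taken within each library was compared between FRβ KO and WT, the interval is a conditional exact one. Log2 ratios used a prior count of 2. Genes were tested from 10 counts in sum. Intervals and limits cover counting error only, and reads carried no molecular identifiers. Near-identical copies were sought among transcripts (blastn 2.17.0, 95% identity, 150 bases or more), and coding sequences were aligned with Biopython 1.88. The interval was tested on simulated counts that varied by counting error only, so that test does not cover variation between mice or libraries.

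The members and lists were chosen with earlier results of these data known. Named genes are the 8 enzymes, the other listed folate enzymes (some are not reported here), and of each other list up to 4 genes farthest from 1 by the nearer bound of the interval plus the most abundant per kilobase. *Folr2* is named as the disrupted gene, *Mthfsl*, *D10Wsu102e* and *Smcr8* as a copy and overlapping genes, and *Siglech* as a marker at 0. With 2 libraries no genes were named for likeness of pattern. Alternatives were other scalings (total counts, upper quartile, DESeq2 1.42.0 size factors), 99% intervals, other count minimums, fold limits and prior counts, and other make-ups of the arms.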

Additional observations from a re-analysis of the deposited data

How the results depend on the processing

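No paired analysis was possible because each genotype has 1 library. With total counts, upper quartile or DESeq2 size factors, the intervals of the 8 enzymes and of the cytosolic arm stayed above 1, below 1 or across 1 as they were. The mitochondrial arm lay above 1 with total counts (1.09, 1.01 to 1.18). With 99% intervals, 0 enzymes were above 1 and 0 below 1. The mitochondrial to cytosolic ratio in FRβ KO against WT was 1.21 with counterpart enzymes only, and the choices made after seeing the data gave 1.11 (*Mthfs* with *Mthfsl*) and 1.02 (no *Mthfs*). The minimum of 100 counts was also added then. Among the other folate enzymes, total counts left 1 gene below 1, and they changed other list counts (methionine above 1 to 1 and below 1 to 2, cell cycle below 1 to 0, macrophage markers below 1 to 2, purine below 1 to 4, thymidylate below 1 to 2, ATF4 above 1 to 5). Over all tested genes, 45 were over 2-fold higher and 59 lower in FRβ KO. These counts were 16 and 29 with at least 50 counts, 10 and 22 with at least 100, 8 and 18 with at least 200, 136 and 155 at 1.5-fold, 21 and 38 with 99% intervals, and 583 and 551 by the point ratio, since a weaker rule passes more genes. Depth limits *Aldh1l2* most, at 50 counts over both libraries, and with 1 library per genotype the variation between mice is unknown.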
